A study of Mus musculus with 70 samples.

Results

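The Kruppel-like factor (KLF) genes Klf2, Klf3, Klf4, Klf6, Klf7, Klf9, Klf10 and Klf13 were followed through every population of regulatory T cells (Tregs) that was sequenced. They were taken as a list of names, with no cutoff on their values, and each was matched by symbol to its Ensembl gene ID, which gave 8 of the 53465 gene IDs in the count table. All 8 passed the filter on low values and were among the 13173 protein-coding genes tested. The Tregs came from 5 male Foxp3-YFP-cre mice of 16.6 to 18.6 weeks, in which YFP and Cre are made from the Foxp3 locus, so a Treg was a CD4+ cell with YFP. ST2+ CD44hi and ST2- CD44hi Tregs were sorted from blood, spleen, lungs, skin of the back, the colon's lamina propria and visceral adipose tissue (VAT), and ST2- CD44lo CD62L+ Tregs from spleen and lungs, which made 14 groups. ST2 is the receptor for IL-33 and is encoded by Il1rl1, CD44hi marks effector Tregs, and CD44lo CD62L+ marks central Tregs. No mouse was treated, and the same 5 mice gave all 14 groups, so libraries of 1 mouse are not independent between groups.

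KLF proteins are transcription factors that end in C2H2 zinc fingers and bind GC-rich or CACCC sequences, where some members activate and others repress. In T cells, KLF2 is known for holding naive and central cells in quiescence and for driving genes of exit from tissue, such as S1pr1, and it is lost when the antigen receptor is engaged. Other members, among them KLF4, KLF6, KLF9 and KLF10, are known to be induced early by stress, growth factor or hormone signals.

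RNA was amplified from at most 220 sorted cells per library and sequenced as 58-base single reads. Of the 70 libraries, 67 with over 1000000 counts were used (1304560 to 2759926 counts, median 2039002), which left 4 libraries for blood ST2+, 3 for colon ST2+ and 5 for every other group. Levels are given as CPM, counts scaled to 1000000 per library after TMM correction, with the SD over mice. A difference was called when the p of edgeR's quasi-likelihood test, adjusted by Benjamini and Hochberg's method across all 13173 genes, was at most 0.05 and the fold change at least 1.5. Il1rl1 was at 230 to 1610 CPM in ST2+ libraries and at 0 to 195 CPM in ST2- libraries, where the upper end lay in skin. Foxp3 had counts in all 67 libraries. Transcripts of other cells were measured too, and the 7 myeloid markers summed to 1040 to 1240 CPM in colon ST2+ Tregs against 24.4 to 205 CPM in colon ST2- Tregs. The tissues were not prepared alike. Blood cells were only washed and freed of red cells, spleens were broken up mechanically, and lungs, VAT, colon and skin were digested with warm collagenase. Cells of spleen, lungs and VAT were freed of red cells as well. For spleen and lungs alone, CD4+ T cells were enriched with a kit before the sort.

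Klf2 (ENSMUSG00000055148) lies on chromosome 8, Klf3 (ENSMUSG00000029178) on 5, Klf4 (ENSMUSG00000003032) on 4, Klf6 (ENSMUSG00000000078) on 13, Klf7 (ENSMUSG00000025959) on 1, Klf9 (ENSMUSG00000033863) on 19, Klf10 (ENSMUSG00000037465) on 15 and Klf13 (ENSMUSG00000052040) on 7 of GRCm38. All are protein-coding, and the counts cover reads in their exons, untranslated exon parts included. Other genes overlap 4 of the 8. These are Gm20033 and C230096K16Rik at Klf3, Gm26649, Mir6899 and Gm13748 at Klf7, Mir1192 at Klf9, and Gm27252 and E030018B13Rik at Klf13. Overlap here means whole gene spans, introns included, and overlap of exons was not examined. C230096K16Rik, Mir6899 and Mir1192 lie on the strand of their KLF gene, and the other partners on the opposite strand. A strand setting is not given in the sources used here. Reads of opposite-strand partners that fall in the gene's exons therefore cannot be told apart from reads of the gene itself. Klf2, Klf4, Klf6 and Klf10 overlap no annotated gene.

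The stretches before the start sites of Klf2, higher in blood than in spleen, of Klf4, near 0 outside digested tissues, of Klf6, lowest in spleen, and of Klf9, higher in skin, are shown to set these patterns beside the sequence. They are the 250 bases before the RefSeq start site on GRCm38.p6, 5′ to 3′ on the gene's strand, and RefSeq promoters were matched for 7 of the 8 genes. Capitals mark the letters GGGCGG of a GC box, the letters CCACCC of the related CACCC box, the MEF2 core TAAATTTA or the FOXO site TGTTTAC, each searched on both strands, and neighbouring or overlapping matches run together.
Klf2, chr8:72318812-72319061, plus strand: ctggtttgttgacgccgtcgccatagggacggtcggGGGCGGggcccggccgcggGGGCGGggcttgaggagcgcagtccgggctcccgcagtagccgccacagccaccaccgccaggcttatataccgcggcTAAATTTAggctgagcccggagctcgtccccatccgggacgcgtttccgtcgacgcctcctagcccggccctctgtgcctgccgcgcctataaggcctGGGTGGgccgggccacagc
Klf4, chr4:55532476-55532725, minus strand: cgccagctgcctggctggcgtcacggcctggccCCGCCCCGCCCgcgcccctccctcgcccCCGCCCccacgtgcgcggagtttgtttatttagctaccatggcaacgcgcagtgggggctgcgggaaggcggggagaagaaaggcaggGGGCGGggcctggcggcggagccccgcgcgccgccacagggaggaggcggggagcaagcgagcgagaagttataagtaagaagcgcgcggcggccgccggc
Klf6, chr13:5861239-5861488, plus strand: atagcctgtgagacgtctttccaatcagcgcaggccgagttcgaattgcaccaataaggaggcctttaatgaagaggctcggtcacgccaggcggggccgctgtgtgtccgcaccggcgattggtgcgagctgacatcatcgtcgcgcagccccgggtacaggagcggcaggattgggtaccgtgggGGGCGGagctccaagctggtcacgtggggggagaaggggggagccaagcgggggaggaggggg
Klf9, chr19:23140976-23141225, plus strand: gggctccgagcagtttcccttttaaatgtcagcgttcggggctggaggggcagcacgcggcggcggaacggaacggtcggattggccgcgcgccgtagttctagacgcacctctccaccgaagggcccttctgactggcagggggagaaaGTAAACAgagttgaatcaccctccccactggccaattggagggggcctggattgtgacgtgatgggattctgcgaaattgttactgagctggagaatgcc
The Klf2 stretch held a MEF2 core that began 117 bases before the start site, a sequence present in 0.502% of 32851 promoter stretches of that length. The other MEF2 form searched, TAAAAATA, was in none of the 7 stretches and in 2.45% of all. The Klf9 stretch held the single FOXO site among the 7, beginning 100 bases before the start, against 3.17% of all stretches. GC boxes, the kind of site that KLF and SP proteins bind, numbered 2 in Klf2, 4 in Klf4, 1 in Klf6 and 0 in Klf9, and 32.7% of all stretches held at least 1. CACCC boxes were in 28.1% of all stretches, with 1 in Klf2 and 0 in Klf4, Klf6 and Klf9. The AP-1 site TGACTCA (4.46% of all) and the cAMP response element TGACGTCA (1.55%) were in none of the 7 stretches. GC content was 71.2% for Klf2, 74.0% for Klf4, 64.8% for Klf6 and 59.6% for Klf9. A match is a run of letters and was not tested as a binding site.

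Per length, Klf6 was the most abundant member. Averaged over the 14 groups, the level per kilobase of exon was 216 CPM for Klf6, 135 for Klf2, 35.7 for Klf3, 24.6 for Klf13, 21.9 for Klf10, 13.4 for Klf4, 8.06 for Klf7 and 4.55 for Klf9. Klf4 and Klf9 were the least covered, with a median of 38 and 31 counts per library, and Klf4 had counts in 54 of the 67 libraries against 65 for Klf9 and 67 for each of the rest. Klf13 varied least, with 1.79-fold between its highest and lowest group mean, while Klf3 varied 20.7-fold.

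Tissue of origin took most of the variation of most members. In the 57 CD44hi libraries the 6 tissues took 91.7% of the variance of log2 CPM for Klf4, 88.0% for Klf3, 85.6% for Klf6, 81.1% for Klf2 and 71.0% for Klf10. ST2 added after tissue took 0.0705% to 3.55% in any member. Klf7 was unlike the rest, with 31.6% for tissue and 36.8% for the way the ST2 difference changed with tissue, against 2.42% to 6.79% for the latter in the other 7. Mice took 16.1% for Klf13 and 0.0736% to 5.16% for the others, and these shares are descriptions without a test. In the 12 groups with 5 libraries, mouse 5 held the lowest Klf2 value in 8 and mouse 4 the highest Klf6 value in 9.

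**Figure D1:**
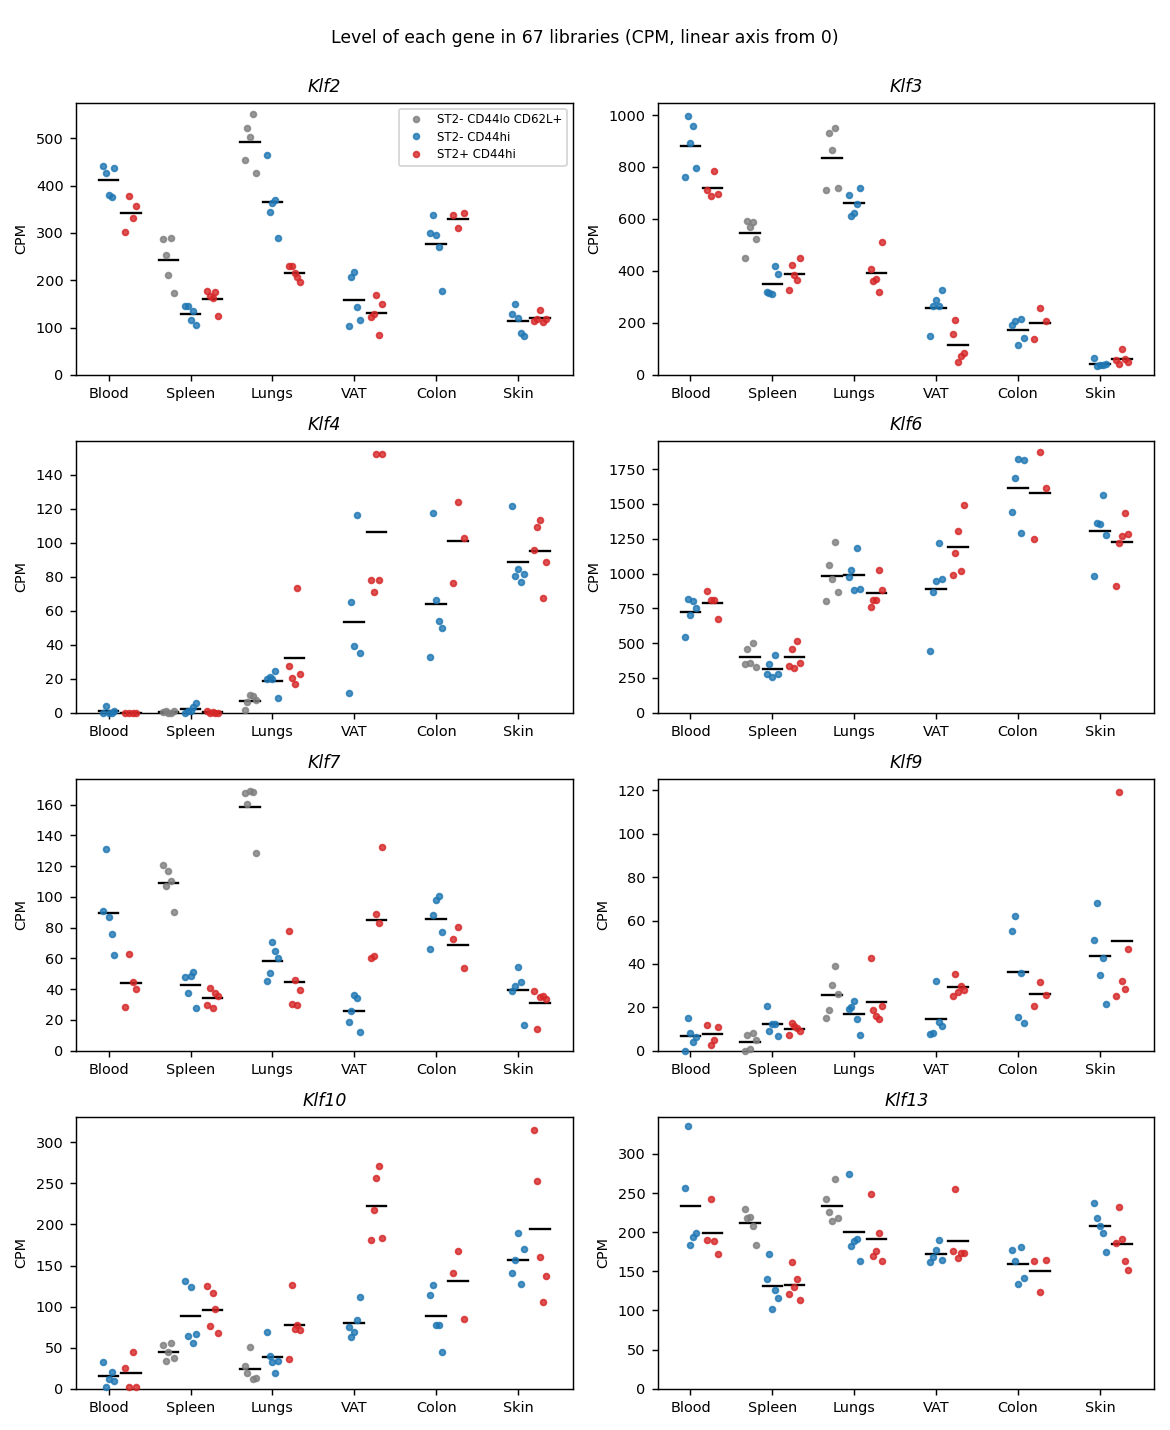
CPM of each KLF gene (linear axis from 0) in the 67 libraries by tissue, coloured by population, with a black bar at each group mean. In ST2- CD44hi Tregs Klf2 and Klf3 were highest in blood and next in lungs, Klf4 was near 0 in blood and spleen, and Klf7 was highest in the 2 CD44lo CD62L+ groups.

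Klf2 and Klf3 set blood apart from spleen in both CD44hi populations. In ST2- CD44hi Tregs of mice 1 to 5, Klf2 was at 442, 426, 380, 377 and 438 CPM in blood and at 146, 146, 116, 135 and 104 CPM in spleen. The groups did not overlap, and the difference was 1.67 ± 0.17 (log2, SE), or 3.19-fold (adjusted p = 1.1e-10). Klf2 was higher than in spleen in ST2- Tregs of lungs too (367 ± 64.1 CPM, difference 1.5, adjusted p = 7.3e-10) and of colon (276 ± 60.4 CPM, 1.09, 1.52e-06). In VAT (157 ± 52.6 CPM) and skin (114 ± 28.1 CPM) it did not pass against 129 ± 18.6 CPM in spleen. In ST2+ Tregs Klf2 was higher than in spleen (161 ± 21.5 CPM) in blood (342 ± 32.9 CPM, n = 4, 1.09, adjusted p = 2.29e-05) and colon (331 ± 18.3 CPM, n = 3, 1.04, 6.29e-05). In ST2+ Tregs of lungs the mean was 216 ± 14.3 CPM, every lung library lay above every spleen library, and the difference of 0.42 did not pass (adjusted p = 0.127). In CD44lo CD62L+ Tregs Klf2 was higher in lungs than spleen (492 against 243 CPM, 1.02, adjusted p = 1.17e-05), and Klf3 did not pass (835 against 544 CPM, 0.62, 0.0988). In order, the means of Klf2 ran from 492 ± 50.7 CPM in CD44lo CD62L+ Tregs of lungs to the 114 CPM of skin, and 11 of the 13 neighbours in that order differed by less than the larger of their SDs.

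Klf3, a repressor that recruits the cofactor CtBP, fell off much more steeply towards skin. In ST2- CD44hi Tregs of mice 1 to 5 it was at 761, 998, 893, 959 and 796 CPM in blood and at 64, 32, 39, 37 and 40 CPM in skin, with 320, 313, 309, 421 and 389 CPM in spleen. The 3 tissues did not overlap. Against spleen, blood was higher by 1.33 ± 0.22 (adjusted p = 1.73e-05) and lungs by 0.92 ± 0.21 (661 ± 46.2 CPM, adjusted p = 0.00333). Colon was lower by 1.01 (174 ± 43.8 CPM, adjusted p = 0.000662) and skin by 3.02 ± 0.24, or 8.13-fold (adjusted p = 4.74e-16), while VAT did not pass (259 ± 66.6 CPM, adjusted p = 0.222). In ST2+ Tregs Klf3 was at 389 ± 49.0 CPM in spleen. It was higher in blood (720 ± 43.1 CPM, 0.89, adjusted p = 0.00976) and lower in VAT (114 ± 67.1 CPM, -1.76, 9.9e-09), colon (199 ± 60.1 CPM, n = 3, -0.97, 0.00897) and skin (62.1 ± 21.3 CPM, -2.65, 2.95e-14). Lungs matched spleen closely in ST2+ Tregs (392 ± 73.1 CPM, difference 0.01 ± 0.21). The blood call in ST2+ Tregs was lost without mouse 4 (0.82, adjusted p = 0.0725), and the colon call without mouse 1 (-0.81, 0.0698) or mouse 4 (-1.02, 0.0552).

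Klf4, known from stem cells, epithelia and myeloid cells and as a brake on T cell division, was nearly absent from blood and spleen. In the 24 blood and spleen libraries it was at 0 to 5.97 CPM with a median of 0. All 4 blood ST2+ libraries had 0 counts, and the 5 of spleen ST2+ had 3, 0, 1, 0 and 0. In the 43 lung, VAT, colon and skin libraries it was at 1.47 to 152 CPM with a median of 66.2. VAT ST2+ Tregs had 78, 71, 152, 78 and 152 CPM in mice 1 to 5, and skin ST2- Tregs had 121, 80, 85, 77 and 81 CPM. Every library of lungs, VAT, colon and skin lay above every spleen library of the same population, and all 9 comparisons with spleen were called, with adjusted p from 5.23e-12 to 0.000867. Because spleen held so few counts, fold changes are given as ratios of summed counts with exact 95% intervals that cover counting error only. In ST2- CD44hi Tregs the ratio to spleen (30 counts over 5 libraries) was 7.73 (5.23 to 11.8) in lungs and 20.4 (14.1 to 30.6) in VAT, while it reached 26.3 (18.2 to 39.3) for colon and 38.7 (26.9 to 57.8) for skin. Of those 30 spleen counts 17 were from mouse 5, and without this mouse the ratio was 16.0 for lungs, 39.0 for VAT, 49.1 for colon and 71.2 for skin. In ST2+ Tregs, with 4 counts in spleen, it was 89.5 (34.6 to 331) in lungs and 315 (123 to 1160) in VAT, with 295 (115 to 1090) for colon and 291 (113 to 1070) for skin. Mouse 1 held 3 of those 4 counts. Without it, over the 1 spleen count left, the ratio was 285 for lungs and 910 to 1070 for the others, and without mouse 4 the lung ratio was 56.2. In CD44lo CD62L+ Tregs of lungs, at 1 to 10 CPM, it was 14.1 (6.18 to 39.5) and, without mouse 5, which held 3 of the 6 spleen counts, 21.6, and the call was lost in a fit of those 2 groups alone (adjusted p = 0.0588). Blood ST2+ Tregs were given a floor of 3 counts over the group (0.348 CPM). Relative to this floor, Klf4 of ST2+ Tregs was 85.0-fold in lungs, 299-fold in VAT, 280-fold in colon and 276-fold in skin. These ratios are not lower bounds, because the spread between mice and the error of the tissue counts are left out. Mouse 4 held 110 of the 305 lung counts. The blood ST2+ library left out for low counts held 1 count of Klf4, or 2.05 per 1000000 counts, which is above the floor.

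Klf6, a broadly expressed activator of growth and stress genes, was higher than in spleen everywhere else. In ST2- CD44hi Tregs of mice 1 to 5 it was at 278, 350, 255, 413 and 277 CPM in spleen and at 1443, 1687, 1825, 1292 and 1819 CPM in colon. The groups did not overlap, and colon was higher by 2.36 ± 0.17, or 5.13-fold (adjusted p = 2.67e-16). Skin followed with 2.06 (1310 CPM), lungs with 1.66 (992 CPM), VAT with 1.49 (887 CPM) and blood with 1.20 (723 CPM), with adjusted p of at most 1.06e-06. In ST2+ Tregs, against 398 CPM in spleen, the differences were 1.99 in colon, 1.62 in skin, 1.58 in VAT, 1.11 in lungs and 0.99 in blood, with adjusted p of at most 0.000147. The blood call in ST2+ Tregs was lost with all 70 libraries (0.82, adjusted p = 0.0685). Klf6 was higher in lungs than spleen also in CD44lo CD62L+ Tregs (984 against 399 CPM, 1.3, adjusted p = 4.46e-08).

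Klf9, a gene that glucocorticoids and thyroid hormone induce, was higher than in spleen in skin of both populations. In ST2+ Tregs of skin it was at 25, 119, 32, 28 and 47 CPM in mice 1 to 5 and in spleen at 7.2, 12.7, 11.3, 10.3 and 9.2 CPM. The groups did not overlap, mouse 2 lay far above the others, and the difference was 2.31 ± 0.60 (adjusted p = 0.00207). In ST2- Tregs the difference was 1.82 ± 0.59 (43.7 against 12.3 CPM, adjusted p = 0.0130), and it was lost without mouse 2 (1.53, adjusted p = 0.0764) or mouse 4 (1.84, 0.0586). In CD44lo CD62L+ Tregs Klf9 was higher in lungs than spleen (25.9 against 4.25 CPM, 2.61, adjusted p = 0.00545), a call lost without mouse 3 (2.29, 0.0805) and in a fit of the 2 groups alone (2.61, 0.0539). It did not pass in the other 8 comparisons with spleen, at 6.76 to 36.3 CPM (adjusted p from 0.0683, in colon ST2- Tregs, to 0.894).

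Klf10, known as TGF-β inducible early gene 1, was lower in blood than in spleen. In blood it was at 32, 2, 12, 20 and 9 CPM in ST2- Tregs of mice 1 to 5 and at 26, 3, 45 and 3 CPM in ST2+ Tregs of mice 2 to 5. In spleen it was at 56 to 132 CPM in ST2- and 68 to 125 CPM in ST2+ Tregs, with no overlap. The log2 differences were -2.50 ± 0.46 (adjusted p = 0.000159) and -2.36 ± 0.49 (0.00136), and the latter was lost without mouse 3 (-1.90, 0.0613) and with only the 2 groups (-2.36, 0.0895). Klf10 was higher than in spleen in VAT ST2+ Tregs (222 against 96.5 CPM, 1.20, adjusted p = 0.0453), a call lost without mouse 2 (1.13, 0.129), mouse 3 (1.23, 0.0946), mouse 4 (1.12, 0.116) or mouse 5 (1.16, 0.111). In the other 8 comparisons with spleen it did not pass (adjusted p from 0.0552 to 1), at 157 CPM in skin of ST2- and 194 CPM in skin of ST2+ Tregs.

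Klf7, a member known from neuronal development, was higher than in spleen in blood ST2- Tregs (89.4 against 42.4 CPM, 1.07, adjusted p = 0.00784) and in colon ST2- Tregs (85.9 CPM, 1.02, 0.00575). It was also higher in VAT ST2+ Tregs (85.3 against 34.4 CPM, 1.31, 0.000259) and colon ST2+ Tregs (69.0 CPM, 1.0, 0.0212). The blood call was lost without mouse 2 (0.85, adjusted p = 0.116), and the colon ST2+ call without mouse 1 (0.91, 0.103), mouse 3 (0.79, 0.281) or mouse 4 (1.19, 0.0524). In the other 7 comparisons with spleen Klf7 did not pass (adjusted p from 0.0896 to 0.771). Klf13, which activates the chemokine gene Ccl5 in T cells, was higher than in spleen (131 CPM) in ST2- Tregs of blood (233 CPM, 0.83, 0.000104), skin (207 CPM, 0.66, 0.000334) and lungs (200 CPM, 0.61, 0.00548). The lung call was lost without mouse 1 (0.49, 0.0884) or mouse 3 (0.55, 0.0627). With voom or median-of-ratios factors its size of 0.58 was under the fold minimum. In ST2+ Tregs Klf13 passed the adjusted p but stayed under 1.5-fold in blood (198 against 133 CPM, 1.49-fold), lungs (1.44-fold), VAT (1.42-fold) and skin (1.39-fold), and with the mouse as a block the blood difference was called.

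Counted over the 8 members, ST2- CD44hi Tregs had 6 called differences from spleen in blood (5 higher), where 3.38% of all tested genes were called, and 5 in lungs (all higher), where 4.03% were called. They had 2 in VAT (both higher, 5.78% of all genes), 5 in colon (4 higher, 11%) and 5 in skin (4 higher, 30.9%). ST2+ Tregs had 4 in blood (3 higher, 4.11% of all genes), 2 in lungs (both higher, 4.87%), 5 in VAT (4 higher, 11.2%), 5 in colon (4 higher, 10.4%) and 4 in skin (3 higher, 29.1%). CD44lo CD62L+ Tregs of lungs had 4, all higher than in spleen, where 3.16% of all genes were called. The comparisons within a population use the same spleen libraries, so a high or low spleen value enters each of them. The median log2 difference of all tested genes lay between -0.045 and 0.05 in these comparisons. In bulk RNA, fewer cells of a kind and less RNA per cell cannot be told apart.

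**Figure D2:**
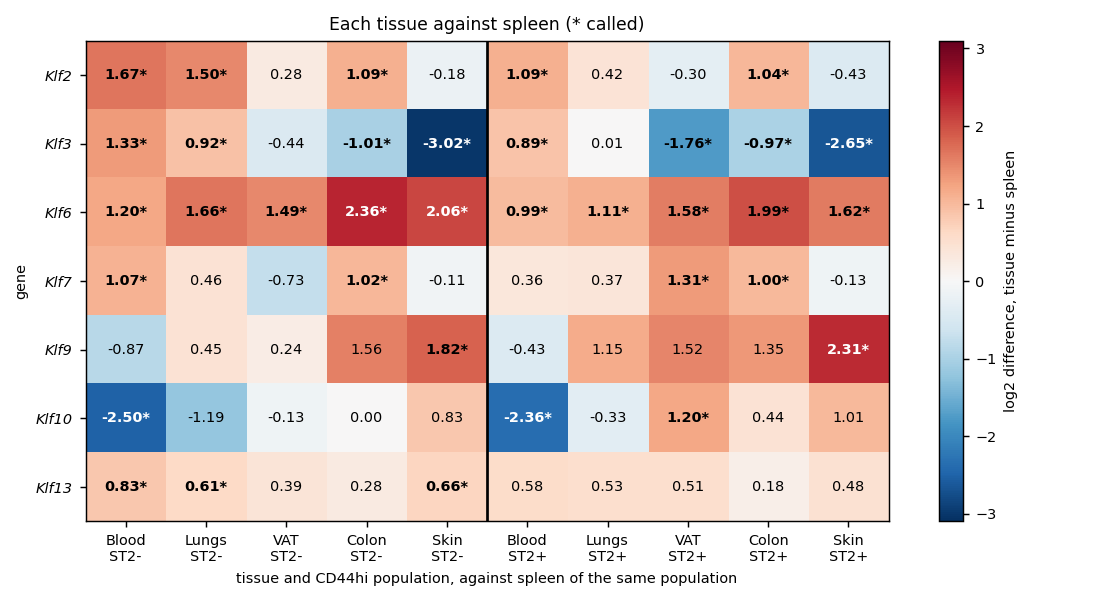
Log2 difference of each tissue from spleen in ST2- (left) and ST2+ (right) CD44hi Tregs, with red for higher than spleen, blue for lower and an asterisk for a called difference. Klf6 was higher in all 10 comparisons, and Klf3 ran from 1.33 in blood to -3.02 in skin of ST2- Tregs. Klf4 is left out because spleen held few counts.

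The 4 digested tissues also differed from blood and spleen in immediate early genes, which cells switch on within minutes of stress. A list of 13 dissociation and immediate early genes, named immediate early genes for short, held Fos, Fosb, Jun, Junb, Jund, Egr1, Ier2, Atf3, Dusp1, Nr4a1, Zfp36 and the heat shock genes Hspa1a and Hspa1b. The summed level of these 13 was 1330 to 3560 CPM in blood and spleen libraries. It was 3940 to 6890 CPM in lungs, 3130 to 10100 CPM in VAT, 5920 to 10800 CPM in colon and 6660 to 9090 CPM in skin. Against spleen, 9 of 13 were called higher in lungs of both CD44hi populations, with Egr1 lower in the ST2- one (17.2 against 107 CPM). Of all tested genes 4.03% (ST2-) and 4.87% (ST2+) were called there. In CD44lo CD62L+ Tregs of lungs 6 of 13 were higher, against 3.16% of all genes called. In ST2- Tregs 12 were higher in colon (11% of all genes called), 11 in skin (30.9%) and 9 in VAT (5.78%). In ST2+ Tregs 11 were higher in colon (10.4%), 12 in skin (29.1%) and 12 in VAT (11.2%). In blood none was higher, and 2 (ST2-, 3.38% of all genes called) and 3 (ST2+, 4.11%) were lower. Across the 14 group means, the genes most like Klf4 in pattern among 9199 genes were Atf3 (r = 0.968), Fosl2 (0.959) and Rnf157 (0.952), and those most like Klf9 were Dusp1 (0.942), Nr4a3 (0.937) and Odc1 (0.936). For Klf6 they were Eif1 (0.972), H3f3b (0.955) and Rgcc (0.954), and within groups, over the deviations of 67 libraries from their group means, Klf6 still had r of 0.70 with Eif1. Klf4 had 0.28 within groups with Atf3. These are descriptions over groups that share mice. Digestion and tissue cannot be told apart in these libraries.

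**Figure D3:**
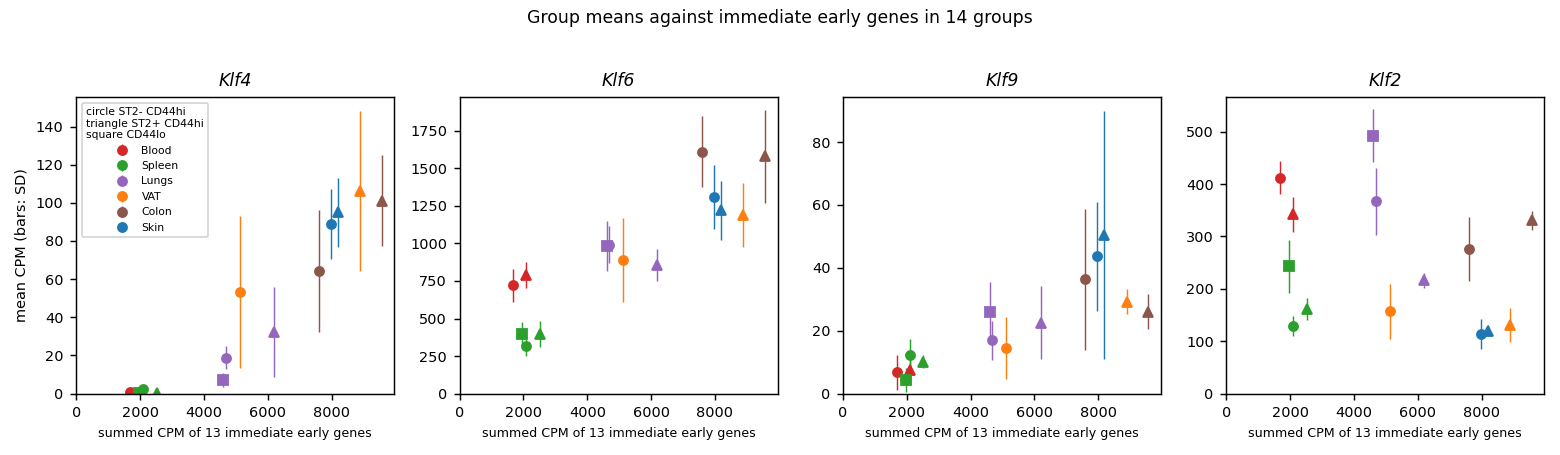
Mean CPM of Klf4, Klf6, Klf9 and Klf2 (bars, SD) against the summed CPM of 13 immediate early genes (heat shock genes Hspa1a and Hspa1b included) in the 14 groups, coloured by tissue and shaped by population. The blood and spleen groups lie at 1680 to 2520 CPM on the horizontal axis with Klf4 at 0 to 2.28 CPM, and the other groups at 4610 to 9570 CPM with Klf4 at 7.17 to 106 CPM.

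Markers of other cells that express Klf4 were measured beside it, first as 7 genes picked from the marker lists after their values were seen. Of the 43 libraries of digested tissues, 9 held no count of Csf1r, Adgre1, Pdgfra, Kdr, Krt5, Krt14 or Krt8, which mark macrophages, fibroblasts, endothelium and epithelium, against 21 of the 24 from blood and spleen. In those 9, of which 8 came from lungs and 1 from VAT, Klf4 was at 1.47 to 73.6 CPM (median 20.9) and Klf6 at 803 to 1190 CPM, against at most 5.97 CPM of Klf4 and 874 CPM of Klf6 in the 24 libraries of blood and spleen. The VAT library had 64.9 CPM of Klf4. Klf9 was at 7.04 to 23.1 CPM (median 15.1) in the 9 libraries, which overlapped the 0 to 20.6 CPM (median 8.27) of blood and spleen. The 9 libraries were not free of other cells' transcripts by the whole lists. In them the 7 myeloid markers summed to 0 to 107 CPM (median 13.4, at 0 in 1 library) against 0 to 131 CPM (median 2.88) in blood and spleen, and the 5 fibroblast and adipocyte markers to 0 to 5.36 CPM against 0 to 13.1 CPM. The 6 epithelial markers summed to 13.1 to 141 CPM (median 59.0) against 0 to 203 CPM (median 28.1) in blood and spleen, where Epcam was at up to 186 CPM. Among these 6, Sftpc, the surfactant gene of lung epithelium, was at up to 124 CPM (median 35.4) against 0 in every blood and spleen library. Sftpc was called higher in lungs than in spleen in all 3 populations. No colon or skin library was free of all 7 markers. The 6 epithelial and keratinocyte markers summed to 42.6 to 1010 CPM in colon and 77.5 to 1120 CPM in skin. In ST2- Tregs, Krt8 and Krt18 were called higher than in spleen in colon, and Krt5 and Krt14 in skin. The 5 fibroblast and adipocyte markers summed to 6.82 to 759 CPM in colon and 2.13 to 572 CPM in skin, and the 7 myeloid markers to 70.3 to 164 CPM in VAT ST2+ and 0 to 93.3 CPM in VAT ST2- Tregs. Against spleen 4 of the 7 were higher in VAT ST2+ (Csf1r, C1qa, C1qb and Lyz2) and 2 in VAT ST2- Tregs (C1qa and C1qb), where 11.2% and 5.78% of all tested genes were called. In colon 6 of the 7 were higher in ST2+ (Csf1r, C1qa, C1qb, Lyz2, Adgre1 and Itgam) and 2 in ST2- Tregs (C1qb and Lyz2), where 10.4% and 11% were called. The part of such cells in Klf4 of lungs, VAT, colon and skin was not tested.

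ST2+ and ST2- CD44hi Tregs of the same tissue differed in few members. In VAT, ST2+ Tregs had more Klf7 and Klf10 and less Klf3. In lungs they had less Klf2 and in blood less Klf7. In spleen, colon and skin edgeR called none. At an unadjusted p under 0.05 there were 2 members in spleen (Klf4 and Klf6), 0 in colon and 1 in skin (Klf3). Of all 13173 tested genes, 680 were under it in spleen, 664 in colon and 1114 in skin. DESeq2 and voom called 0 members in all 3 tissues.

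Klf7 in VAT had the clearest ST2 difference. It was at 60, 62, 89, 83 and 132 CPM in ST2+ Tregs of mice 1 to 5 and at 19, 26, 36, 34 and 12 CPM in ST2- Tregs. The groups did not overlap, all 5 mice had the same direction, and the difference was 1.74 ± 0.27, or 3.34-fold (adjusted p = 1.42e-05). Klf10 in VAT was at 181, 218, 257, 271 and 184 CPM in ST2+ against 75, 64, 69, 84 and 112 CPM in ST2- Tregs. It did not overlap either, and rose by 1.46 ± 0.42 (adjusted p = 0.0349). Klf3 in VAT was at 156, 211, 51, 72 and 82 CPM in ST2+ against 149, 263, 289, 265 and 327 CPM in ST2- Tregs. It was lower in 4 of 5 mice, the groups overlapped because mouse 1 was as low in ST2- as in ST2+ Tregs, and the difference was -1.18 ± 0.22 (adjusted p = 0.000294).

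These 3 were called among 8 members in VAT, where 3.12% of all tested genes were called. VAT ST2- libraries were made from 93 to 220 cells and VAT ST2+ libraries from 220. With the sorted cell number added to the model Klf7 and Klf3 stayed called, and Klf10 had a difference of 1.02 (adjusted p = 0.282). The Klf10 call was also lost without mouse 2 (1.41, 0.127), mouse 3 (1.35, 0.137) or mouse 4 (1.39, 0.103) and with all 70 libraries (1.46, 0.0776), and the Klf3 call in a fit of the 2 groups alone (-1.17, 0.200). VAT ST2+ Tregs also had 5 of the 13 immediate early genes higher, Atf3 at 556 against 74.6 CPM among them, and the part of these in Klf10 was not tested. The 7 myeloid markers summed to 70.3 to 164 CPM in VAT ST2+ against 0 to 93.3 CPM in VAT ST2- libraries, and 1 of the 7, Csf1r, was called (18.0 against 0 CPM). Their part in the 3 VAT differences was not tested.

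In lungs Klf2 was at 229, 230, 216, 207 and 197 CPM in ST2+ Tregs of mice 1 to 5 and at 466, 345, 364, 370 and 289 CPM in ST2- Tregs. It was lower in all 5 mice without overlap, by 0.76 ± 0.17 on the log2 scale or 1.70-fold (adjusted p = 0.00675). This was 1 member of 8, where 0.782% of all genes were called. The call was lost without mouse 1 (-0.68, adjusted p = 0.0717), mouse 3 (-0.77, 0.0800) or mouse 4 (-0.75, 0.0810). Klf3 in lungs was at 408, 360, 367, 317 and 510 CPM in ST2+ against 693, 610, 622, 659 and 719 CPM in ST2- Tregs, also lower in all 5 mice without overlap, and did not pass (-0.75 ± 0.21, adjusted p = 0.0749). DESeq2 and voom with quality weights did call it.

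In blood Klf7 was at 29, 63, 45 and 40 CPM in ST2+ Tregs of mice 2 to 5 against 91, 131, 87, 76 and 62 CPM in ST2- Tregs of mice 1 to 5. It was lower in 4 of 4 mice with both libraries, by 1.01 ± 0.28 (adjusted p = 0.0249), as 1 member of 8 where 4.04% of all genes were called. The groups overlapped by 1 library each, and the call was lost without mouse 2 (-0.68, adjusted p = 0.271), mouse 3 (-1.21, 0.0584) or mouse 4 (-1.07, 0.0845). It was also lost with all 70 libraries (-0.60, 0.230), with the CD44hi libraries alone (-1.0, 0.0506) and with the 2 groups alone (-1.0, 0.247).

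No member was called in spleen (0.319% of all genes called), colon (0.0683%) or skin (0.213%). Apart from Klf4 in spleen, which had 4 and 30 counts, the largest differences there were in colon for Klf4 (101 ± 23.9 against 64.2 ± 32.1 CPM, 0.65 ± 0.59) and Klf10 (131 ± 42.5 against 88.2 ± 32.7 CPM, 0.57 ± 0.48) and in skin for Klf3 (62.1 ± 21.3 against 42.6 ± 12.4 CPM, 0.53 ± 0.24). Colon ST2+ Tregs had higher mean sums than ST2- Tregs of the 7 myeloid (1150 against 69.4 CPM) and 6 epithelial markers (549 against 217 CPM). The 5 fibroblast and adipocyte markers summed to 525 against 191 CPM. Of the 7 myeloid and the 6 epithelial markers 0 were called between ST2+ and ST2- Tregs of colon. The part of such cells in these colon differences was not tested.

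The ST2 difference changed with tissue for 3 members when the 6 tissues were tested together, where 1.43% of all genes were called. Klf7 ranged from -1.01 in blood to 1.74 in VAT (adjusted p = 0.000113), Klf3 from -1.18 in VAT to 0.53 in skin (adjusted p = 0.00268), and Klf2 from -0.76 in lungs to 0.31 in spleen (adjusted p = 0.0258). Klf3 lost the call without mouse 3 (adjusted p = 0.220), mouse 4 (0.0936) or mouse 5 (0.0701). Klf2 lost it without mouse 1 (0.12), mouse 2 (0.0777), mouse 3 (0.265) or mouse 4 (0.237). Klf4 had an adjusted p of 0.0928, and Klf6, Klf9, Klf10 and Klf13 lay between 0.407 and 0.929.

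**Figure D4:**
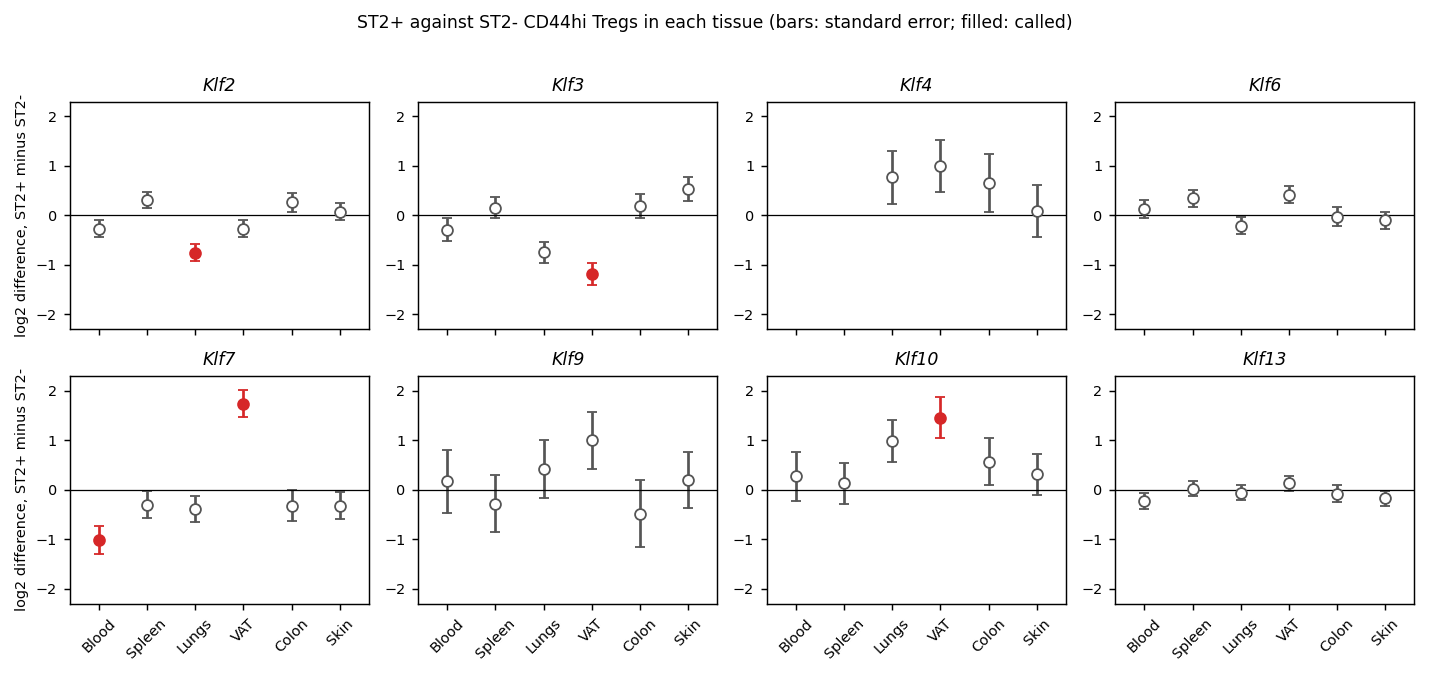
Log2 difference of ST2+ from ST2- CD44hi Tregs in each tissue with its standard error, for the 8 genes, filled in red where called. Klf7 lay at 1.74 in VAT and at or below -0.30 in every other tissue, and Klf4 is not drawn in blood and spleen, where it had at most 30 counts per group.

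Central Tregs had more Klf7 than effector Tregs in both tissues where both were sorted. In spleen Klf7 was at 121, 107, 117, 111 and 90 CPM in ST2- CD44lo CD62L+ Tregs of mice 1 to 5 and at 48, 37, 48, 51 and 28 CPM in ST2- CD44hi Tregs. In lungs it was at 168, 161, 169, 168 and 128 CPM against 45, 50, 71, 65 and 60 CPM. Neither pair overlapped, and the CD44hi level was lower in 5 of 5 mice by 1.36 ± 0.27 in spleen (adjusted p = 0.000216) and by 1.44 ± 0.26 in lungs (7.64e-05).

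Klf2 and Klf13 were lower in CD44hi Tregs of spleen. Klf2 was at 287, 254, 210, 290 and 173 CPM in CD44lo CD62L+ against 146, 146, 116, 135 and 104 CPM in CD44hi Tregs (-0.91 ± 0.17, adjusted p = 8.05e-05), and Klf13 at 184 to 230 CPM against 101 to 172 CPM (-0.69 ± 0.15, adjusted p = 0.000894). Neither overlapped. In lungs Klf2 was at 492 ± 50.7 against 367 ± 64.1 CPM (-0.42, adjusted p = 0.127) and Klf13 at 234 ± 22.0 against 200 CPM (-0.23, 0.447), and whether spleen and lungs differ in this was not tested. In spleen 3 of 8 members were called, where 5.03% of all genes were called, and in lungs 1 of 8, where 5.53% were called. Klf3 in spleen was at 544 ± 59.5 against 350 ± 51.1 CPM with no overlap, and did not pass (-0.64, adjusted p = 0.0668).

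**Figure D5:**
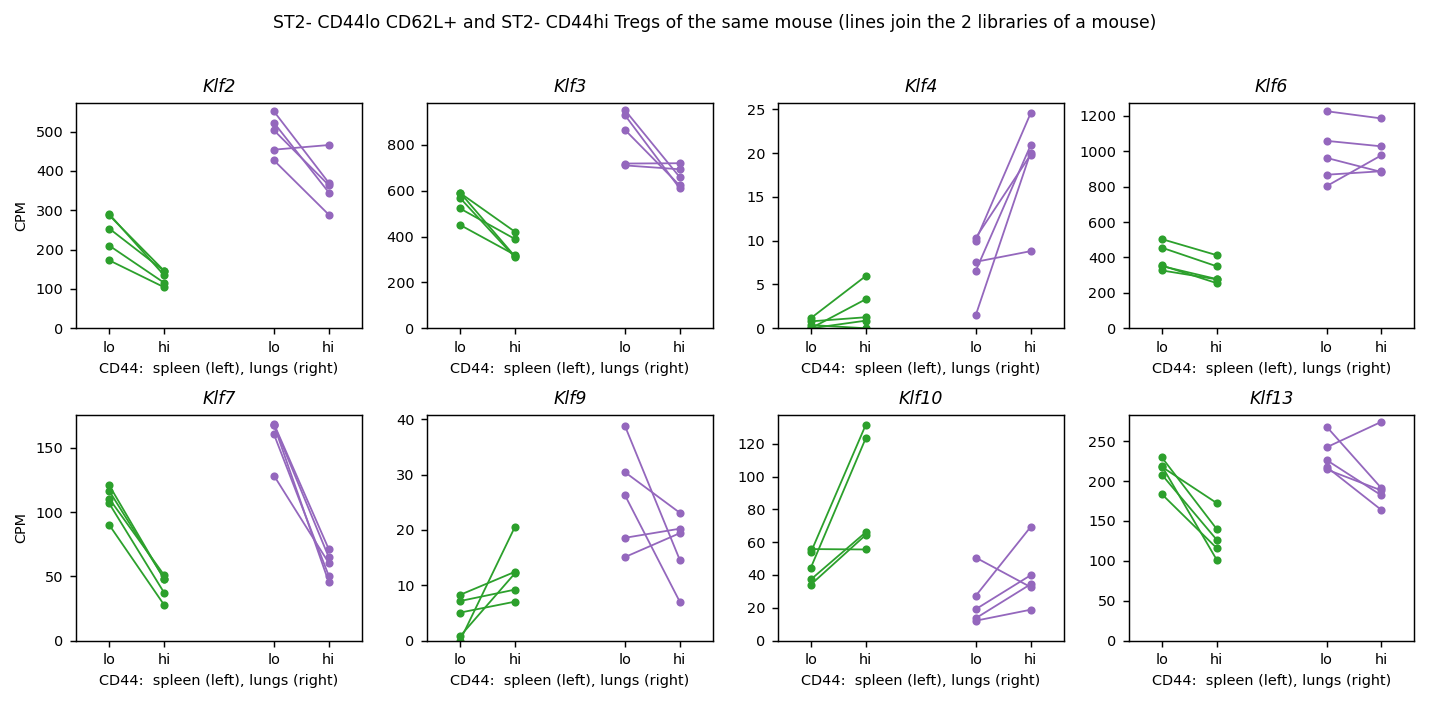
CPM of the 8 genes (linear axis from 0) in ST2- CD44lo CD62L+ (lo) and ST2- CD44hi (hi) Tregs, with a line for each mouse, spleen in green and lungs in purple. Klf7 fell in every mouse in both tissues, and Klf2 fell in every mouse in spleen.

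Genes linked to KLF2 and recirculation moved in part with it. The 7 genes of the list described here were S1pr1, S1pr4, Ccr7, Itgb7, Cd69, Foxo1 and Foxo3. In blood against spleen 3 were called in ST2- Tregs, all higher, where 3.38% of all tested genes were called. S1pr1, the receptor for exit along sphingosine 1-phosphate, was at 807 against 376 CPM (1.10, adjusted p = 7.11e-05), S1pr4 at 110 against 51.7 CPM and Foxo1, an activator of Klf2, at 465 against 285 CPM. In ST2+ Tregs S1pr1 (748 against 368 CPM) and S1pr4 were higher in blood. In lungs S1pr1 (872 against 376 CPM in ST2-, 603 against 368 CPM in ST2+) and Ccr7, a receptor of homing to lymph nodes (1150 against 450 and 624 against 218 CPM), were higher than in spleen in both populations, and Cd69 in ST2- (743 against 378 CPM) and CD44lo CD62L+ Tregs. In colon, where Klf2 was higher than in spleen, S1pr1 was lower in ST2- Tregs (198 against 376 CPM, -0.92, adjusted p = 0.000472), S1pr4 was lower in both populations, and Cd69, whose product takes S1PR1 off the surface, was higher (1250 against 378 CPM in ST2-, 1.73, 1.7e-08, and 1290 against 473 CPM in ST2+). The 5 endothelial markers summed to 47.1 to 472 CPM in colon ST2- Tregs, against 155 to 175 CPM in spleen. In ST2+ Tregs they summed to 88.3 to 312 CPM in colon, against 64.5 to 184 CPM in spleen. Kdr was called higher in colon than in spleen in both populations, and Egfl7 in ST2+ Tregs. The part of endothelial cells in Klf2 of colon was not tested. In VAT Cd69 was higher and Foxo1 lower than in spleen in both populations, with S1pr1 and Ccr7 lower in ST2+ Tregs. In skin of both populations S1pr1 was lower and Cd69 higher, where 30.9% (ST2-) and 29.1% (ST2+) of all tested genes were called. Between CD44hi and CD44lo CD62L+ Tregs of spleen, S1pr1 (376 against 733 CPM) and Foxo1 (285 against 449 CPM) were lower beside Klf2. In lungs, where Klf2 was lower in ST2+ Tregs, Foxo1 was the 1 gene of the 7 that was called (247 against 381 CPM, -0.62, adjusted p = 0.00695), and S1pr1 (603 against 872 CPM) did not pass. In the other ST2 comparisons, ST2+ Tregs had less Ccr7 (234 against 955 CPM) and Foxo1 in blood, less Foxo1 in colon, and less S1pr1 (223 against 435 CPM) and Ccr7 (62.7 against 312 CPM) but more Cd69 in VAT. The ST2 difference of S1pr1 changed with tissue (adjusted p = 0.0169), where 1.43% of all genes were called. Against spleen, 4.03% of all genes were called in lungs, 5.78% in VAT and 11% in colon of ST2- Tregs. For ST2+ Tregs it was 4.11% in blood, 4.87% in lungs, 11.2% in VAT and 10.4% in colon, and for CD44lo CD62L+ Tregs 3.16%. Between CD44hi and CD44lo CD62L+ Tregs of spleen it was 5.03%. Between ST2+ and ST2- Tregs it was 4.04% in blood, 0.782% in lungs, 3.12% in VAT and 0.0683% in colon.

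Of the 18 other KLF and SP genes, 9 passed the filter, and edgeR called 0 of the 9 in each ST2 and CD44 comparison. At most 4 of the 9 had an unadjusted p under 0.05, Klf8, Klf12, Sp1 and Sp3 in blood, where 2476 of all 13173 tested genes were under it. Klf5, an epithelial factor, was called against spleen in colon (42.6 CPM in ST2+, 21 in ST2-) and skin (14.7 and 6.77 CPM), and its mean was at most 1.63 CPM in every other group. Klf11, a relative of Klf10, was higher in skin (74.3 against 16.0 CPM in ST2+, 55.9 against 15.4 CPM in ST2-), as was Klf16 (20.2 against 6.0 and 17.6 against 4.72 CPM). Sp2 was lower in skin ST2- Tregs (33.4 against 57.4 CPM, -0.78, adjusted p = 0.0498). In skin 4 of the 9 were called in ST2- and 3 in ST2+ Tregs, where 30.9% and 29.1% of all tested genes were called. In colon 1 of the 9 was called in each population, where 11% (ST2-) and 10.4% (ST2+) of all genes were. Klf8 and Klf12 passed the filter and were never called, and Klf1, Klf14, Klf15 and Klf17 had counts in 6, 3, 2 and 1 libraries. Sp3, at 271 CPM on average, was the most counted of the list.

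The 10 cofactor genes of KLF proteins included the KLF3 partners Ctbp1 and Ctbp2, the KLF10 partner Sin3a, and the acetyltransferases Ep300, Crebbp and Kat2b. Kat2b, encoding PCAF, was the member called most, lower in skin than in spleen in ST2- (20.9 against 74.6 CPM, -1.85, adjusted p = 7.93e-09) and ST2+ Tregs (32.6 against 85.2 CPM, -1.39, 3.09e-06). It was also lower in CD44hi than in CD44lo CD62L+ Tregs of spleen (74.6 against 126 CPM) and lungs (99.1 against 167 CPM). It was lower in colon than in spleen in ST2+ Tregs (48.3 against 85.2 CPM) and in ST2+ than in ST2- Tregs of blood (71.0 against 124 CPM), and higher in blood than in spleen in ST2- Tregs. Ep300 was higher in skin (186 against 88.1 CPM in ST2-, 180 against 110 CPM in ST2+) and in blood of ST2- Tregs (153 CPM). Crebbp was higher in skin of ST2- (293 against 178 CPM) and lungs of CD44lo CD62L+ Tregs (311 against 201 CPM). Wwp1 was higher in lungs of ST2- (83.6 against 32.3 CPM) and lower in skin of ST2+ Tregs (28.3 against 53.8 CPM), and Hdac2 was lower in colon of ST2- Tregs (125 against 190 CPM). Ctbp2, at 16.8 CPM or less in each group compared, was higher than in spleen in skin of ST2- and VAT of ST2+ Tregs. Ctbp1, at 198 CPM on average, and Sin3a, at 91.4 CPM, were called in no comparison, and list medians lay between -0.16 and 0.30. In skin 4 of the 10 were called in ST2- and 3 in ST2+ Tregs, near the 30.9% and 29.1% of all tested genes called there.

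The genes closest in pattern to the other members, over the same 14 group means, were Cd55 (r = 0.916), Sptbn1 (0.908) and Nub1 (0.838) for Klf2 and St8sia6 (0.985), Ifi213 (0.975) and Tmem71 (0.973) for Klf3. For Klf7 they were Slc30a7 (0.879), Ly6c1 (0.849) and Macrod1 (0.827), for Klf10 Gramd1c (0.935), Cish (0.935) and Ralb (0.934), and for Klf13 Rpl8 (0.878), Pitpnc1 (0.876) and Tnrc6b (0.874). Within groups these coefficients ran from -0.22 to 0.43. Among the members themselves Klf4 was most like Klf9 (0.86) and Klf6 (0.81) over group means and Klf3 least like Klf10 (-0.85), while within groups the same pairs had 0.21, 0.43 and -0.08.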

How the data were processed

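The authors prepared SMART-Seq v4 and Nextera XT libraries, read them on a HiSeq2500, aligned 58-base single reads with STAR to GRCm38 and counted them per gene of Ensembl release 91 with HTSeq-count 0.4.1. Neither counting mode nor strand setting is given in the sources used here. The deposited values are whole-number counts per gene and library, unnormalized, and columns of values left unused numbered 0. Of 53465 gene IDs, 53274 were found in GENCODE M21, which gave symbols, coordinates and exon lengths.

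Libraries with over 1000000 counts were kept (67 of 70). The 13173 protein-coding genes that reached 1 CPM in 10% or more of these were tested. One model with a mean for each of the 14 groups, without a mouse term, was fitted with edgeR 4.0.16 (TMM factors, glmQLFit and glmQLFTest, two-sided) in R 4.3.3, so all groups shared 1 estimate of the spread, and p-values were adjusted by Benjamini-Hochberg within each comparison. The code was tested on simulated data. The limits were an adjusted p of 0.05 and a fold change of 1.5, with none on size for the interaction. Alternatives were median-of-ratios factors, 3 other gene filters, the study's tool (voom with sample quality weights, limma 3.58.1), DESeq2 1.42.0, a mouse term, all 70 libraries, fewer groups in the fit, sorted cell number as a covariate, no fold minimum, and each mouse left out. Figures used matplotlib 3.10.9 in Python 3.11.15 with numpy 2.4.6 and pandas 2.3.3.

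All groups came from the same 5 mice, so the mouse numbers pair the samples. Over 9210 genes, deviations from group means correlated by 0.0834 on average between ST2+ and ST2- libraries of the same mouse (27 pairs, lowest 0.00628, 8 above 0.1) and by -0.02 between different mice. Kept libraries ranged from 1304560 to 2759926 counts, and intervals and floors cover counting error only. The rule for names took all 8 KLF genes, the called genes of each list (at most 4 per list and comparison, by adjusted p), the other KLF genes with counts, and the 3 genes with a mean of at least 10 CPM whose group means are most like each KLF gene. Immediate early genes, and KLF genes that were not called, are in part given as counts or ranges. One gene of the recirculation list is not reported here. Klf4 ratios with each mouse left out and whole marker lists in the libraries without 7 markers were added after the data were seen. The members and lists were chosen with earlier results of these data known.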

Additional observations from a re-analysis of the deposited data

Results flagged for a closer look

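In 10 of 103 groups of 4 or 5 libraries tested over the 8 genes, 1 library lay far from the rest by Dixon's criterion, which chance meets in about 1 of 20 groups. Klf4 was at 73.6 CPM in mouse 4 of lungs ST2+ Tregs (next 27.8) and at 121 CPM in mouse 1 of skin ST2- Tregs (next 84.8). Klf9 was at 42.8 CPM in mouse 1 of lungs ST2+ (next 20.5), at 32.0 CPM in mouse 3 of VAT ST2- (next 13.3) and at 119 CPM in mouse 2 of skin ST2+ Tregs (next 46.9). Klf13 was at 274 CPM in mouse 1 of lungs ST2- (next 191) and at 255 CPM in mouse 2 of VAT ST2+ Tregs (next 176). Klf3 was at 64.1 CPM in mouse 1 of skin ST2- Tregs (next 40.5). Klf7 was low at 13.9 CPM in mouse 2 of skin ST2+ Tregs (next 33.3) and at 128 CPM in mouse 5 of lungs CD44lo CD62L+ Tregs (next 161).

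The ST2 difference varied over the 6 tissues for Klf7 (adjusted p = 0.000113), Klf3 (0.00268) and Klf2 (0.0258) by edgeR's test of the interaction. Klf7 was higher in ST2+ Tregs of VAT in 5 of 5 mice and lower in blood in 4 of 4.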

How the results depend on the processing

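Over the alternatives, 941 of 989 values of the 59 called differences kept direction and call, 48 lost the call, 0 reversed, and 42 of the 59 were called throughout. Calls between ST2+ and ST2- Tregs fell from 5 to 3 with all 70 libraries, and ranged from 2 to 5 with each mouse left out. In the tissues with such calls, all called genes went from 411 to 254 in VAT with all 70 libraries. They went from 103 to 58 in lungs and from 532 to 553 in blood. Calls between CD44hi and CD44lo CD62L+ Tregs rose from 4 to 7 with voom and quality weights (Klf3, Klf9 and Klf10 in spleen), and stayed at 4 with each mouse left out. With voom, calls over all tested genes rose too, from 663 to 1523 in spleen and from 729 to 1223 in lungs. Members with an interaction numbered 3, and 1 to 3 with each mouse left out. Over all tested genes the interaction was called in 189, and in 40 to 136 with each mouse left out. The remaining counts with each mouse left out were 21 to 23 (tissues against spleen, ST2-, 23 with all mice), 16 to 21 (ST2+, 20) and 3 to 4 (CD44lo CD62L+ lungs, 4). Calls over all tested genes also moved in these comparisons. In ST2+ Tregs they numbered 1371 in colon and 459 to 965 with a mouse left out, and 542 in blood and 189 to 479. For VAT ST2- Tregs they numbered 762 and 439 to 834, and for CD44lo CD62L+ Tregs of lungs 416 and 235 to 434. With the mouse as a replicate block the paired counts were 5, 23, 21, 4, 4 and 3. The block added Klf13 in blood ST2+ Tregs and changed no other call. Causes of these changes were not tested.

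Klf4 and Klf9 rest on few counts per library, blood ST2+ on 4 libraries and colon ST2+ on 3. Digestion and the enrichment of CD4+ T cells were confounded with tissue, and transcripts of other cells were measured in all 6 tissues. In blood these included erythroid genes and, in ST2+ Tregs, the 7 myeloid markers at a sum of 49.0 to 131 CPM. In spleen ST2+ Tregs the 4 B cell markers summed to 63.8 to 149 CPM.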

Other observations

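The 3 libraries left out for low counts also held KLF counts. Blood ST2+ of mouse 1 (488666 counts from 66 cells) had 314 counts of Klf2, 409 of Klf3, 211 of Klf6, 75 of Klf7, 128 of Klf13, 1 of Klf4 and 0 of Klf9 and Klf10. Colon ST2+ of mouse 5 (62333 counts) had 318 counts of Klf6, 18 of Klf2 and 8 of Klf4. Colon ST2+ of mouse 2 (3582 counts) had 110 counts of Klf6 and 7 of Klf2.

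Some mice held extreme values repeatedly. In the 12 groups with 5 libraries, mouse 1 had the lowest Klf6 value in 7 and the lowest Klf9 value in 7, and mouse 2 the highest Klf9 value in 6. Mouse 5 had the lowest Klf7 value in 6 and the lowest Klf13 value in 6.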
